A study of Mus musculus with 9 samples.

Results

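The 9 genes St8sia6, St8sia4, St3gal1, St3gal4, St3gal6, St6gal1, Fut4, Fut7 and Gcnt1 encode enzymes that finish the sugar chains of T cell surface proteins with sialic acid and fucose, and they were taken by name from the 20258 gene symbols on the array. Their 14 probes were found through the RefSeq accession given for each probe, and all 9 genes had at least 1. RNA of sorted C57BL/6 thymocytes was measured on 9 one-colour Agilent arrays, 1 array per group. Brd1 conditional knockout (CKO) mice carried Brd1flox/flox with Tie2-Cre, and control mice carried Brd1+/+ with the same Tie2-Cre, a transgene active in endothelial and blood-forming cells. DP cells (CD4+CD8+), CD4SP cells and CD8SP cells (single positive for CD4 or CD8) of both genotypes came from mice aged 8 weeks. CD4SP cells without surface TCRβ (CD4SP(TCRβ-)) came from the CKO alone, also at 8 weeks. CD8SP cells of both genotypes that also carried OT-l, spelled so in the labels and read here as the OT-I T cell receptor transgene restricted by MHC class I, came from mice aged 14 weeks.

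Sialyltransferases move sialic acid from its nucleotide donor onto the end of a sugar chain, and fucosyltransferases add fucose to the lactosamine beside it. Immature cortical thymocytes carry O-glycans with an exposed galactose that binds peanut lectin, and this binding is lost in mature medullary cells as sialic acid covers the galactose. Sialic acid and fucose together form sialyl Lewis x, the structure that selectins bind on leukocytes. Gcnt1 makes the branched core 2 O-glycan on which sialyl Lewis x is built, and it competes for the same unbranched chain with St3gal1, which caps that chain.

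Levels are log2 signals relative to the 75th percentile of the probes on the same array, and differences are log2 differences. Between 39.0% and 45.9% of the probes were well above background on each array, as marked by the scanner software, and no spot was saturated. A gene is represented by its brighter probe, and a level that was not well above background is only an upper limit. The genotypes are those of the labels: the single probe for Brd1 read 0.11 to 0.64 higher on CKO than on control arrays in the 4 pairs, and the sources used here do not say whether the deletion covers it. The 8 of 10 T cell markers found on the array, Cd3e and Lck among them, were well above background on every array. The 11 DP stage genes summed to 976 and 814 multiples of the 75th percentile in CKO and control DP cells, and to 102 to 269 in the 6 other single-positive arrays. The CD4SP(TCRβ-) array, at 926, lay between the DP arrays. In bulk samples, fewer cells of a type and less RNA per cell cannot be told apart.

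The promoters of St8sia6 and St6gal1, which were called between CD4SP and DP, and of Fut7, which had the largest fitted genotype difference of the members, are shown from RefSeq on GRCm38.p6, 250 bases before to 50 after a start site, 5′ to 3′ on the gene's strand, with matches to the letters TGTGGT (RUNX), CTTTGA (TCF/LEF), AGATAA (for GATA factors) and, for FOXO factors, TGTTTA on either strand in capitals. They are St8sia6 at chr2:13793471-13793770 on the minus strand, the first of 2 listed starts of Fut7 at chr2:25422992-25423291 on the plus strand, and the first of 3 listed starts of St6gal1 at chr16:23224490-23224789 on the plus strand.
St8sia6: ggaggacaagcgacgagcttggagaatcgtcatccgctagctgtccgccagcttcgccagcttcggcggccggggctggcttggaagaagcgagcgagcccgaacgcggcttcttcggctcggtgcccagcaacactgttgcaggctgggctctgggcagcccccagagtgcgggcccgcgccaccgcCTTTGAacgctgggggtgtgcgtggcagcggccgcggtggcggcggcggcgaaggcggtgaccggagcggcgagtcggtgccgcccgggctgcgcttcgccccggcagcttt
Fut7: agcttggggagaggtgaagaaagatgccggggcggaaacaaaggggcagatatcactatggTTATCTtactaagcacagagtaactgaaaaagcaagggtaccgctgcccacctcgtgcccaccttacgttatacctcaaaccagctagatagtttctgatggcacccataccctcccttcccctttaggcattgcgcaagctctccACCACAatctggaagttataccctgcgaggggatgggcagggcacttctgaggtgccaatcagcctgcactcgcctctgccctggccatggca
St6gal1: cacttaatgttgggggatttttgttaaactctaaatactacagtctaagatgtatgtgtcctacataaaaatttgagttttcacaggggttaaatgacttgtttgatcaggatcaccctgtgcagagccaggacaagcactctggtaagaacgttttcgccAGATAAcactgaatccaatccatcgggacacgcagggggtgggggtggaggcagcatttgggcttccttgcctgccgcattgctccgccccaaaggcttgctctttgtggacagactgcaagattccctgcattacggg

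These 3 windows had little in common. St8sia6 had 72.0% GC and 39 CpG dinucleotides with 1 TCF/LEF match, Fut7 had 54.0% GC and 8 CpG with 1 RUNX and 1 GATA match, and St6gal1 had 48.0% GC and 7 CpG with 1 GATA match. Over 32851 mouse promoters of the same length the median was 52.7% GC and 7 CpG. Promoters were listed for 8 of the 9 genes, 14 windows in all. RUNX letters occurred in 3 of the 14, against 16.8% of all promoters, TCF/LEF letters in 2, against 16.0%, GATA letters in 3, against 11.2%, and FOXO letters in 0, against 13.4%. The letters GGAAGT (ETS) occurred in 5, against 23.8%, and CACCC (KLF) in 12, against 57.5%. Several of the 14 windows are starts of the same gene, so the windows are not independent, and a match is a description of letters only.

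St8sia6, which links sialic acid to sialic acid in α2,8 linkage, mainly on O-glycans, was the most population-restricted of the 9 on these arrays. Its single probe was well above background on the 2 CD4SP arrays alone, at -0.97 in CD4SP CKO cells and 1.00 in CD4SP control cells. The other 7 arrays lay between -5.44 and -4.57, none of them well above background. Against the lowest signal well above background, CD4SP exceeded DP by at least 10.5-fold. The fitted difference was 5.32 (SE 0.57, adjusted p = 0.0171 by limma), but St8sia6 entered the test only through the 2 CD4SP arrays where it is high. In the DP, CD8SP and OT-I CD8SP pairs, which share in its error, neither array was well above background. This p and those given below for St8sia6 are therefore descriptions and not support. With normexp background correction, whose offset of 50 raises dim signals, the fitted difference was 1.56. The test here and below is limma's moderated test on an additive model of population and genotype over all 9 arrays, with Benjamini-Hochberg adjustment over 20284 genes, so that its error is the spread of the genotype difference between populations. CD8SP lay below CD4SP by at least 8.22-fold on the same terms; the fitted difference was -4.63 with an adjusted p of 0.0513, which misses the threshold of 0.05, and -1.29 with normexp. With slide as a block it was -4.86 with an adjusted p of 0.264, and on slide 1 alone it was -5.01. The slide 1 setting keeps 6 arrays and 1 residual degree of freedom. CD8SP is there the control array alone, assumed to vary like the others. CD4SP(TCRβ-) cells lay at -5.38, against -0.97 in CD4SP CKO cells, at least 6.12-fold lower. The fitted difference was -5.17 (adjusted p = 0.0402), and with normexp it was -1.46 and not called (adjusted p = 0.106).

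**Figure D1:**
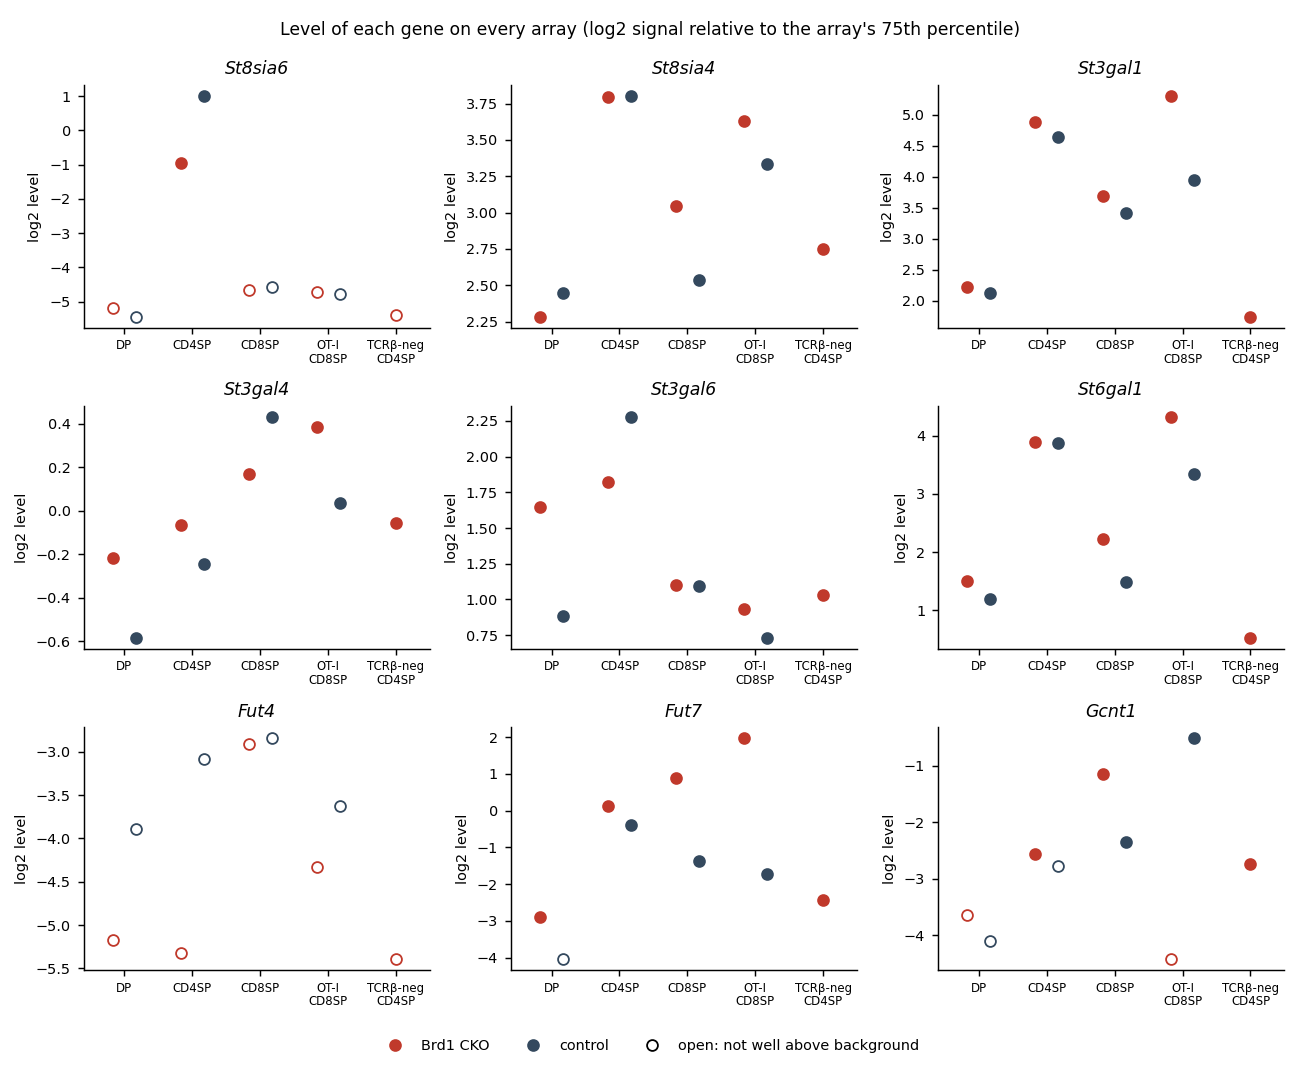
Log2 level of each of the 9 genes relative to the array's 75th percentile (vertical axes differ between panels), 1 point per array, CKO left of control in each population; open points were not well above background. St8sia6 is filled on the 2 CD4SP arrays alone, Fut4 on none, and Fut7 is higher in CKO than in control in all 4 pairs.

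St3gal1, the enzyme that caps core 1 O-glycans with α2,3 sialic acid, was well above background everywhere and had its lowest levels in DP and CD4SP(TCRβ-) cells. It stood at 4.88 in CD4SP CKO and 4.65 in CD4SP control cells, against 2.23 in DP CKO and 2.12 in DP control cells. CD8SP CKO and control cells had 3.69 and 3.41, OT-I CD8SP CKO and control cells 5.30 and 3.94, and CD4SP(TCRβ-) cells 1.74. The CD4SP arrays did not overlap the DP arrays, and CD8SP lay between them. CD4SP exceeded DP by 2.59 (SE 0.38, adjusted p = 0.0291), and CD8SP exceeded DP by 1.38 with an adjusted p of 0.116. CD4SP(TCRβ-) fell below CD4SP by 3.27 on the log2 scale (SE 0.49, adjusted p = 0.0463). That last call depends on how array probes without a gene symbol are counted. A first fit tested each of them separately, 22945 features in all, and there the same difference had an adjusted p of 0.0532 and was not called. They were joined by shared accession, which left 20284 genes, only after that fit had been seen. The second St3gal1 probe, likewise detected on each of the 9 arrays, followed the first with r = 0.979 over the 9 arrays.

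St6gal1 adds α2,6 sialic acid to N-glycans, the linkage read by the B cell lectin CD22. It was at 3.89 in CD4SP CKO and 3.88 in CD4SP control cells, against 1.5 in DP CKO and 1.21 in DP control cells. In CD8SP CKO and control cells it was 2.22 and 1.49, in OT-I CD8SP CKO and control cells 4.31 and 3.35, and in CD4SP(TCRβ-) cells 0.53, the lowest of the 9 arrays. The high arrays were thus CD4SP and OT-I CD8SP, while polyclonal CD8SP control cells lay within the range of the DP arrays. CD4SP exceeded DP by 2.53 (SE 0.33, adjusted p = 0.0232), and CD4SP(TCRβ-) fell below CD4SP by 3.60 on the log2 scale (SE 0.42, adjusted p = 0.0302). CD8SP differed from DP by 0.51 (adjusted p = 0.442) and from CD4SP by -2.03 (adjusted p = 0.103). The CD4SP comparison was -2.31 on slide 1 alone, where CD8SP is the control array alone. With slide as a block it was -2.18 with an adjusted p of 0.385 by limma. OT-I CD8SP differed from CD8SP by 1.97 (adjusted p = 0.153), a contrast in which the transgene, the age and, for the control cells, the slide change together and cannot be told apart. A second St6gal1 probe, measured on up to 10 spots, was well above background on the CD4SP CKO and OT-I CD8SP CKO arrays alone and lay 5.26 to 6.88 below the first.

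St8sia4, the polysialyltransferase that extends long α2,8 chains on carriers such as Ncam1, Nrp2 and Ccr7, was detected throughout. It was 3.79 and 3.8 in CD4SP CKO and control cells, against 2.28 and 2.45 in DP CKO and control cells. CD8SP CKO and control cells had 3.04 and 2.54, OT-I CD8SP CKO and control cells 3.63 and 3.34, and CD4SP(TCRβ-) cells 2.75. Every CD4SP and CD8SP array was above both DP arrays, though the CD8SP control array by little. CD4SP differed from DP by 1.43 (SE 0.29, adjusted p = 0.0655), outside the threshold, and by the same value on slide 1 alone. With slide as a block the adjusted p of this difference was 0.128 by limma. Of its carriers, Ccr7, the chemokine receptor that guides thymocytes to the medulla, rose by 5.24 in CD4SP over DP (adjusted p = 0.0128) and by 4.65 in CD8SP over DP (adjusted p = 0.0118, and 0.102 with slide as a block). Ncam1 was well above background on 2 of the 9 arrays.

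St3gal4 and St3gal6 make the α2,3-sialylated lactosamine that precedes sialyl Lewis x, and neither passed the test in any contrast. St3gal4 ranged from -0.58 in DP control cells to 0.43 in CD8SP control cells, with the other 7 arrays between. St3gal6 ranged from 0.73 in OT-I CD8SP control cells to 2.27 in CD4SP control cells, and was 1.65 in DP CKO cells, against 0.88 in DP control cells. The 95% interval of the CD4SP minus DP difference ran from -0.46 to 0.95 for St3gal4 and from -0.09 to 1.65 for St3gal6. A 2-fold increase thus lay outside the interval of St3gal4 and inside that of St3gal6.

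Fut7, which adds the fucose that completes sialyl Lewis x, had higher levels in the 6 single-positive arrays other than CD4SP(TCRβ-) than in the DP arrays. It stood at 0.13 and -0.38 in CD4SP CKO and control cells, against -2.90 in DP CKO cells and -4.04, not well above background, in DP control cells. CD8SP CKO and control cells had 0.90 and -1.36, OT-I CD8SP CKO and control cells 1.97 and -1.73, and CD4SP(TCRβ-) cells -2.44. CD4SP differed from DP by 3.34 (SE 0.75, adjusted p = 0.0851) and CD8SP from DP by 3.24 (SE 0.75, adjusted p = 0.0842), both outside the threshold. On slide 1 alone, with 1 residual degree of freedom, these differences were 3.34 (adjusted p = 0.00269) and, with CD8SP as 1 array, 2.52 (adjusted p = 0.0424). Leaving out the OT-I pair, in which CKO and control cells lay farthest apart, also brought both under the threshold. With slide as a block the adjusted p was 0.129 for CD4SP minus DP and 0.332 for CD8SP minus DP by limma. Over the alternatives run these differences went as low as 1.36 and 1.42.

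Fut4, the other α1,3 fucosyltransferase of blood cells, was not well above background on any array with either of its 2 probes, so it was not tested and no difference is given. Gcnt1 was well above background on 5 of the 9 arrays. Among these its level was -1.15 in CD8SP CKO cells and -2.36 in CD8SP control cells, -2.57 in CD4SP CKO cells, -2.74 in CD4SP(TCRβ-) cells and -0.52 in OT-I CD8SP control cells. The OT-I CD8SP CKO, CD4SP control and both DP arrays, between -4.42 and -2.78, were not well above background. Gcnt1 passed the test in no contrast. For CD8SP minus DP the adjusted p by limma was 0.0369 without the OT-I pair and 0.812 with slide as a block. Neither DP array was well above background, so that difference, fitted as 2.11, is measured only as at least 3.09-fold. The standard error of Gcnt1, 1.18 in the 3 contrasts of DP, CD4SP and CD8SP, was the largest of the 8 genes tested.

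In all, CD4SP exceeded DP for 3 of the 8 genes tested (St8sia6, St3gal1 and St6gal1), where 3.09% of all genes tested were called in either direction. St8sia6 is in this count although it was tested only because of its CD4SP arrays. With detection required on all 9 arrays, 5 members were tested and 3 called, St8sia4, St3gal1 and St6gal1. That filter called 712 genes in this contrast. It tested fewer genes, and their number is not given here, so the 3 of 5 cannot be weighed against the 3.09%. The 8 fitted differences had a median of 1.98, against -0.002 over all genes, which is a description. CD8SP against DP gave 0 of 8 calls, against 3.46% of all genes, and 2 of the 8 had an unadjusted p under 0.05. CD8SP against CD4SP gave 0 of 8, against 0.389%, with 5 under an unadjusted 0.05. OT-I CD8SP against CD8SP gave 0 of 8, against 0.237%, with 2 under an unadjusted 0.05. The CD4SP against DP count depends on which pairs enter the error, as all CD4SP and DP arrays lay on slide 1. Slide as a block takes the CD8SP pair out of the error because its arrays lie on different slides. With it, or with that pair left out, St8sia6 was the 1 member called between CD4SP and DP. With slide as a block St3gal1 and St6gal1 kept their differences, 2.59 and 2.53, with an adjusted p of 0.062 and 0.0516 by limma.

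**Figure D2:**
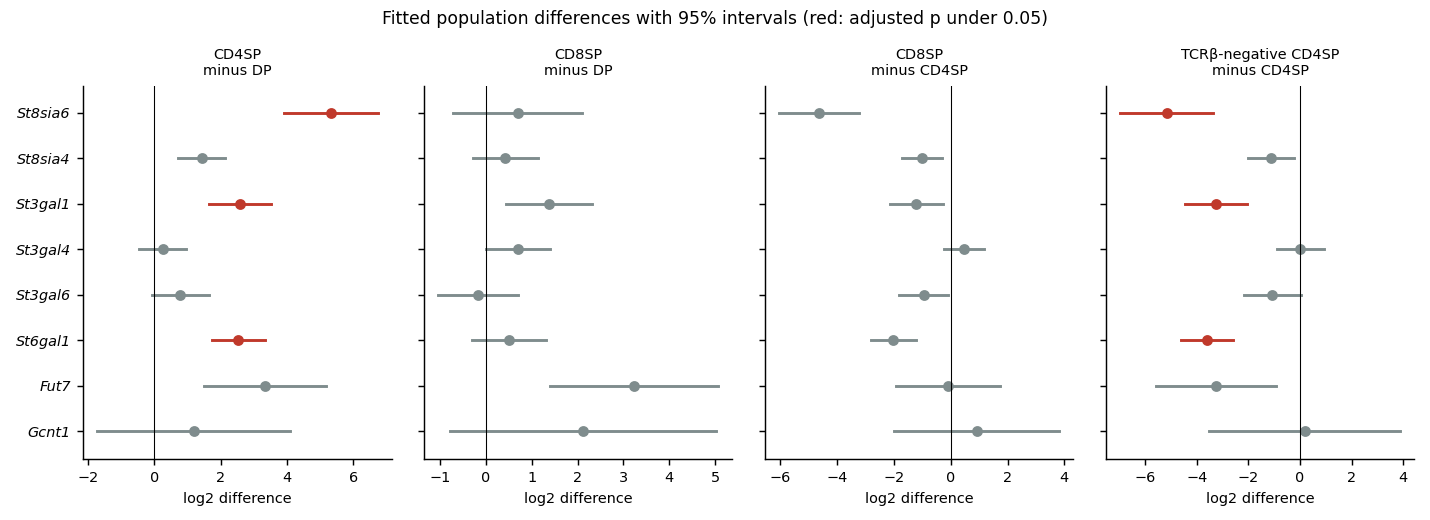
Fitted log2 differences between populations for the 8 genes tested, with 95% intervals; red marks an adjusted p under 0.05 over all 20284 genes. St8sia6, St3gal1 and St6gal1 are red in CD4SP minus DP, to the right of 0, and in CD4SP(TCRβ-) minus CD4SP, to the left, where St3gal1 (adjusted p = 0.0463 by limma) is not called with probes lacking a symbol tested separately.

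The CD4SP(TCRβ-) array of the CKO had no control, and its contrasts assume that Brd1 loss acts there as it does elsewhere. Against CD4SP it was lower for St8sia6, St3gal1 and St6gal1, which also differed between CD4SP and DP, 3 of 8, where 1.4% of all genes were called. With probes lacking a symbol tested separately, as in the first fit, it was 2 of 8, without St3gal1. These contrasts share the CD4SP arrays, so the overlap is not independent. St8sia6 was tested only because of its CD4SP arrays, so its call in this contrast is a description and not support. Against DP it gave 0 of 8, where limma called 0.0% of all genes and 333 of 20284 genes had an unadjusted p under 0.05; St6gal1, at -1.07, was the 1 member among them. Taken as plain differences of 2 CKO arrays, CD4SP(TCRβ-) minus DP was -0.20 for St8sia6, with both arrays not well above background, -0.48 for St3gal1, -0.97 for St6gal1 and 0.47 for Fut7. All 3 calls against CD4SP were absent when the DP pair or the CD8SP pair was left out, with slide as a block, and under quantile or detected-probe scaling. Mature thymocyte genes moved with the 3 members: of 13 such genes, 8 rose in CD4SP over DP and 7 fell in CD4SP(TCRβ-) below CD4SP, and their part in the result was not tested.

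The question of the knockout is whether loss of Brd1, a bromodomain subunit of histone acetyltransferase complexes, altered these enzymes within a population. No member passed the test for the genotype effect, 0 of 8, where limma called 0.281% of all genes and 2217 of 20284 had an unadjusted p under 0.05. Fut7 had the largest fitted difference of the 8, 1.90 higher in CKO (SE 0.53, unadjusted p = 0.0117, adjusted p = 0.305). St6gal1 differed by 0.50 (adjusted p = 0.495) and St3gal1 by 0.49 (adjusted p = 0.544). The remaining 5 lay between -0.51 (Gcnt1) and 0.16 (St3gal4). The median of the 8 was 0.16, against -0.04 over all genes.

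Fut7 was higher in CKO in each of the 4 pairs, and the share of all genes higher in all 4 is not given here. The difference was at least 0.59 in DP cells, where the control array was not well above background, 0.51 in CD4SP cells, 2.26 in CD8SP cells and 3.70, or 13.0-fold, in OT-I CD8SP cells. Its second probe, well above background on the OT-I CD8SP CKO array alone, at -1.94, differed by 2.84 as measured in OT-I CD8SP cells. The OT-I CD8SP control array read -4.78 with this probe, and the lowest signal well above background on that array was -2.94. In the other 3 pairs neither array was well above background with the second probe. On slide 1 alone, with the DP and CD4SP pairs, the genotype difference was 0.82 (adjusted p = 0.679). In the CD8SP pair the CKO array was on slide 2 and the control array on slide 1, so that its genotype and slide effects cannot be told apart; both OT-I arrays were on slide 2.

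**Figure D3:**
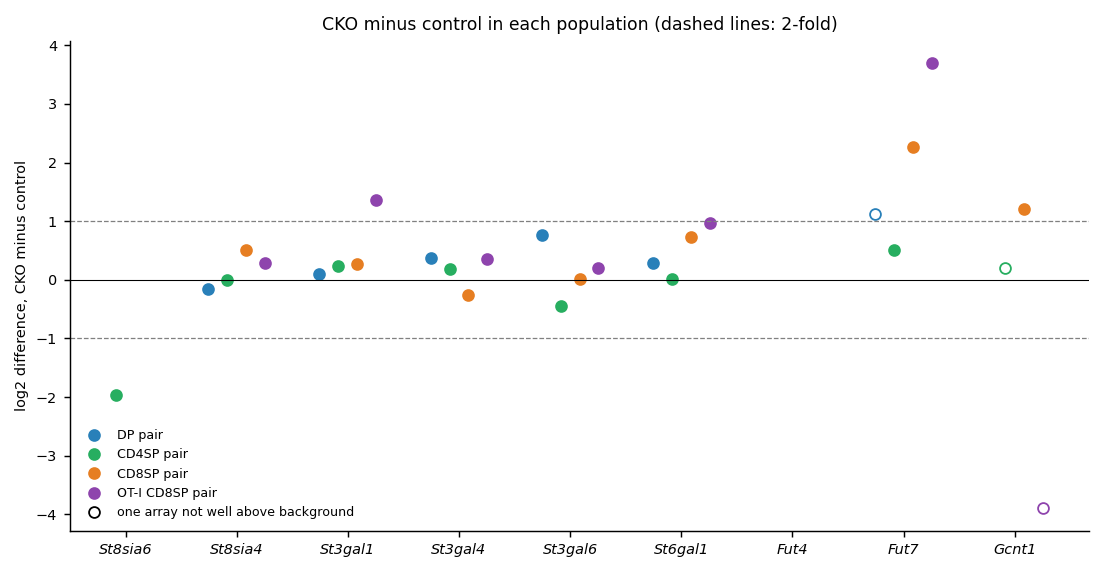
CKO minus control (log2) for each gene in each of the 4 populations, with no replicate within a pair; open points have 1 array not well above background, and pairs with neither array well above background, all 4 for Fut4, are left out. Fut7 lies above 0 in every pair and reaches 3.70 in OT-I CD8SP cells, and Gcnt1 lies at 1.21 in CD8SP cells and -3.90 in OT-I CD8SP cells.

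Within single pairs, up to 3 members differed past 2-fold, and there is no replicate to test them. In DP cells 0 of 6 members with an array well above background passed 2-fold, where 9.29% of all such genes did. In CD4SP cells 1 of 8 did, against 9.17%: St8sia6, at -1.96, or 3.89-fold lower in CKO. In that pair 8 of 11 DP stage genes were over 2-fold higher in CKO, with a median difference of 1.31, and St8sia6 was not well above background in DP cells; their part in the result was not tested. In CD8SP cells 2 of 7 did, against 16.8%: Fut7, and Gcnt1 at 1.21 higher in CKO. In OT-I CD8SP cells 3 of 7 did, against 22.4%: Fut7, St3gal1 at 1.36 higher in CKO, and Gcnt1, at least 5.01-fold lower in CKO by this scaling, with a difference of -0.80 with normexp and -2.42 as the mean of its probes. St6gal1 just missed 2-fold in the OT-I pair, at 0.96.

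Markers of other cell types, maturity and the cell cycle moved with some of these values. On the CD4SP CKO array 1 of 6 NK and NKT cell markers was well above background, with a summed level of 0.41. On the CD4SP control array, where St8sia6 was highest, 4 of the 6 were, with a sum of 7.82; the defining marker Ncr1 was not well above background on any array. On the OT-I CD8SP arrays, 13 mature thymocyte genes had a median of 5.24 in CKO and 4.30 in control cells, 11 of them more than 2-fold higher in CKO. In the CD8SP pair 11 of the 13 were also over 2-fold higher in CKO (median difference 1.64), as were 7 among DP cells (1.15) and 0 among CD4SP cells (0.27). In the OT-I CD8SP pair each of 15 proliferation genes was lower in CKO by over 2-fold, with a median difference of -3.51. In the CD8SP pair 13 of the 15 were so, with a median of -1.18. The 3 gamma delta T cell markers on the array, of 5 listed, summed to 10.1 in OT-I CD8SP CKO cells, against 36.7 in OT-I CD8SP control cells. On each of these arrays 2 of the 3 were well above background, and 1 was over 2-fold lower in CKO. The part of these differences in the values of Fut7, St3gal1, Gcnt1 and St8sia6 was not tested.

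Gcnt1 was higher in CKO than in control CD8SP cells, a pair in which genotype and slide cannot be told apart. It was lower in CKO than in control OT-I CD8SP cells. Its second probe, well above background on the CD8SP CKO array alone, lay on the same sides, at 0.52 for CD8SP and -0.95 for OT-I CD8SP cells. In the CD4SP pair the probes had opposite signs, 0.21 for the first, with the control array not well above background, and -1.06 for the second, with neither array well above background. Over the 9 arrays the probes correlated with r = 0.66, the lowest of the 5 genes with 2 probes, and those of Fut7 with r = 0.883.

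**Figure D4:**
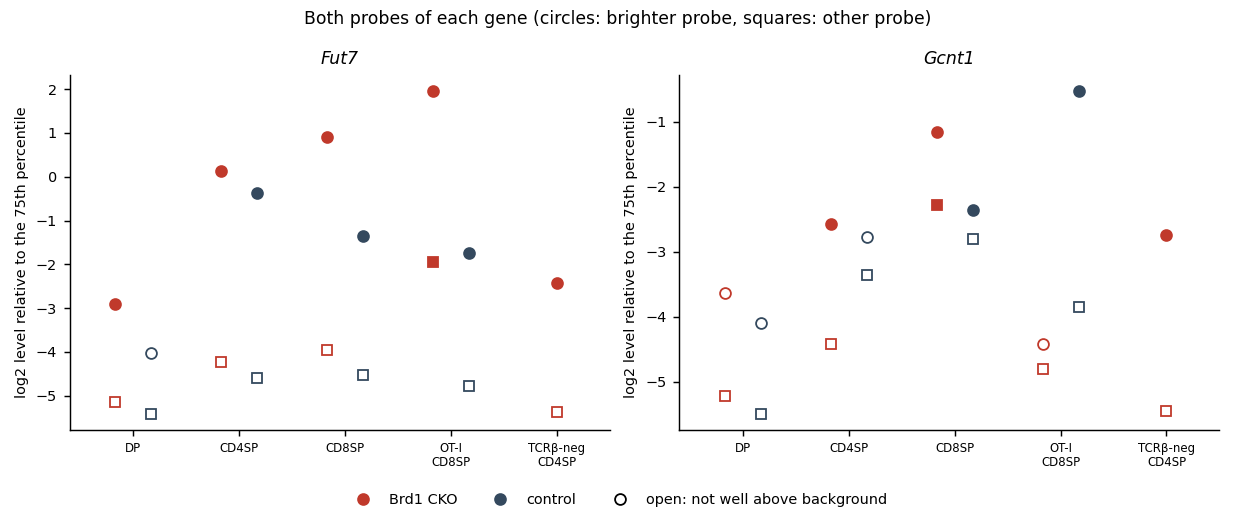
Log2 levels of both probes of Fut7 and Gcnt1 on every array, CKO left of control; circles are the brighter probe, squares the other, and open marks were not well above background. For Fut7 both probes are highest in OT-I CD8SP CKO cells. For Gcnt1 the OT-I CD8SP CKO array is lowest with the brighter probe, and the other probe is filled on the CD8SP CKO array alone.

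Across the 9 arrays the levels of St3gal1 and St6gal1 followed each other with r = 0.955, those of St8sia4 and St6gal1 with r = 0.909 and those of St8sia4 and St3gal1 with r = 0.884. The lowest r, -0.286, was between St3gal4 and St3gal6. These are descriptions over arrays that share their scaling. Among 2662 named genes with a range of at least 2 that were well above background on at least 5 arrays, the nearest to St3gal1 were 2810001G20Rik (r = 0.986), the integrin subunit Itgb3 (0.984) and the kinase Plk3 (0.982). Nearest to St6gal1 were Gpr146 (0.983), Rgs10 (0.979) and Egr1 (0.977), a gene switched on early by T cell receptor signals. Near to Fut7 were the phosphodiesterase Pde3b (0.984) and Zfp975 (0.978). Nearest to St8sia4 were Wdr92 (0.962), Ctse (0.959) and Faah (0.948). For St3gal4 they were Map2k3os (0.934), Endog (0.929) and Nefh (0.913), for St3gal6 Rgs2 (0.934), Lrrc32 (0.912) and Lyz1 (0.902), and for Gcnt1 Snx10 (0.904), Esm1 (0.87) and Pdlim4 (0.855). St8sia6 and Fut4 had too few arrays well above background for this comparison.

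The other genes of the pathway came from 7 lists with 97 genes, 95 of them on the array. Among 14 other sialyltransferases, 7 were tested. St3gal5, which makes the ganglioside GM3, rose in CD4SP over DP by 2.86 (SE 0.36, adjusted p = 0.0225) and in CD8SP over DP by 3.20 (SE 0.36, adjusted p = 0.0144). Its levels were -0.53 and 0.42 in CD4SP CKO and control cells and 0.14 and 0.42 in CD8SP CKO and control cells. In DP control cells it was -2.15, and in DP CKO cells -3.70, which was not well above background. St6galnac6, another enzyme that sialylates gangliosides, rose in CD8SP over DP by 2.09 (adjusted p = 0.03), and its DP CKO array was likewise not well above background. None of the 7 was called lower in either contrast, though in CD8SP minus DP 3 of the 7 differences were positive and the rest negative.

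Among O-glycan genes, 1 of 9 tested rose in CD4SP over DP, Galnt6, which starts O-glycans, by 2.16 (adjusted p = 0.0381), and 1 fell in CD8SP below DP, Galnt4, by 1.96 on the log2 scale (adjusted p = 0.0289). Of 14 N-glycan and lactosamine genes tested, the galactosyltransferase B4galt5 rose over DP in CD4SP by 2.48 (adjusted p = 0.0272) and in CD8SP by 2.83 (adjusted p = 0.019). Mgat1, which opens the way to complex N-glycans, fell by 1.58 in CD4SP below DP (adjusted p = 0.0426), and B3gnt8, which extends lactosamine, fell by 2.75 (adjusted p = 0.0366). The fucosidase Fuca2 fell by 1.77 in CD4SP below DP (adjusted p = 0.0415), 1 of 8 genes for sialic acid removal and modification. None of 5 other fucosyltransferases and none of 11 donor genes passed the test in either of these contrasts. With slide as a block, none of the pathway calls in CD8SP over DP remained, and of those in CD4SP over DP the calls of St3gal5 and Ccr7 remained while those of Galnt6, B4galt5, Mgat1, B3gnt8 and Fuca2 did not. With normexp Fuca2 was at -0.42 and not called (adjusted p = 0.285). Among donor genes the median was 0.04 in CD4SP minus DP and 0.01 in CD8SP minus DP.

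For the genotype, 1 pathway gene outside the 9 passed the test. Fut10, a fucosyltransferase of the α1,3 family, had a fitted difference of -3.61 (SE 0.24, adjusted p = 0.0197), 1 of 5 other fucosyltransferases tested. The call was lost with slide as a block, without the DP, the CD4SP or the CD8SP pair, and with normexp (-1.13, adjusted p = 0.0705). Its levels were -3.11 in DP CKO cells, against 0.03 in DP control cells, -4.68 in CD4SP CKO cells, against -0.98 in CD4SP control cells, -4.33 in CD8SP CKO cells, against -0.11 in CD8SP control cells, and -5.01 in OT-I CD8SP CKO cells, against -1.62 in OT-I CD8SP control cells. CKO and control arrays did not overlap, a pattern whose share over all genes is not given here. Among CKO arrays of the 4 pairs the DP array alone was well above background. Measured against background, Fut10 was therefore at least 5.5-fold lower in CKO in CD4SP cells, at least 10.0-fold in CD8SP cells and at least 2.33-fold in OT-I CD8SP cells, and 8.85-fold lower in DP cells. The second Fut10 probe was well above background on none of the CKO arrays of the 4 pairs and on the DP, CD4SP and CD8SP control arrays.

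Cmah, which turns N-acetylneuraminic acid into N-glycolylneuraminic acid, differed by 1.65 in the opposite direction (SE 0.28, adjusted p = 0.133) and did not pass the test. It was 0.98, 1.58, 2.05 and 2.26 in CKO DP, CD4SP, CD8SP and OT-I CD8SP cells, against -0.31, 0.42, 0.37 and -0.22 in the control cells of the same populations. The CKO arrays thus lay above the control arrays without overlap, and the share of all genes that separate so is not given here. The second Cmah probe lay higher in CKO in all 4 pairs, by 0.94 to 2.75. The carrier Nrp2 was not well above background on any CKO array, and was -0.11 in CD4SP control cells and -1.18 in CD8SP control cells (genotype difference -2.40, adjusted p = 0.327). Galectin-1 (Lgals1), a lectin that binds galactose-ended chains, had a genotype difference of -1.86 and did not pass the test (adjusted p = 0.0681).

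**Figure D5:**
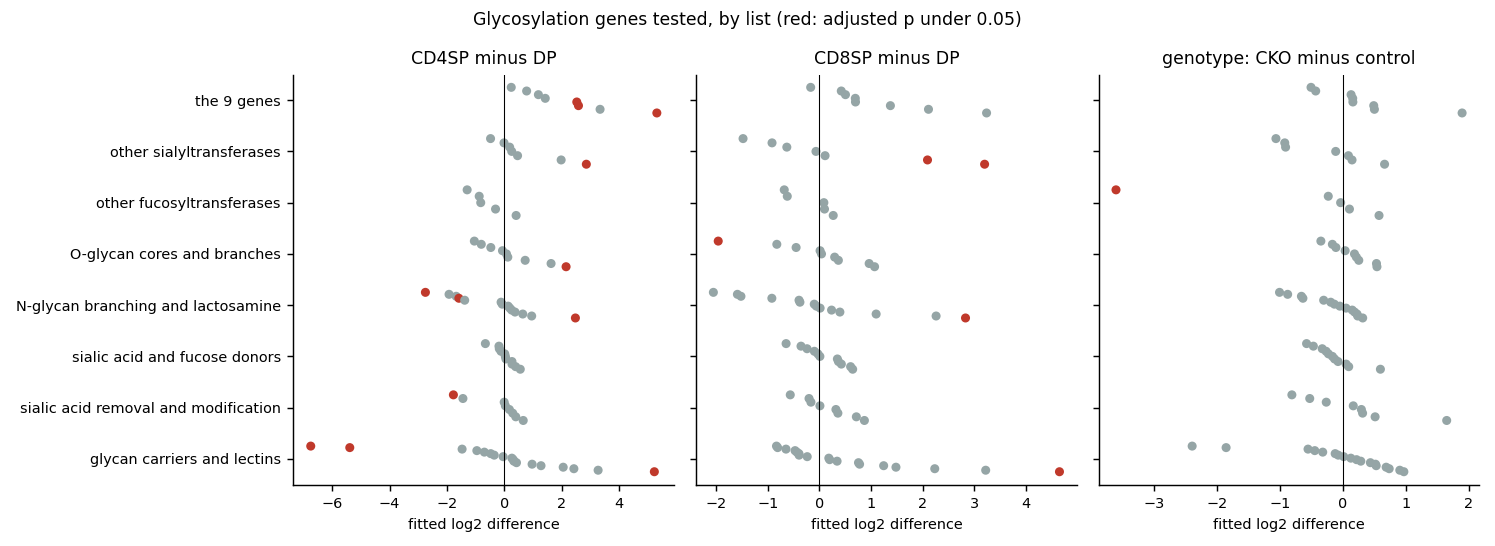
Fitted log2 differences of the glycosylation genes tested, 1 point per gene, by list, for CD4SP minus DP, CD8SP minus DP and CKO minus control; red marks an adjusted p under 0.05 (the horizontal scales differ). The 9 genes hold 3 red points in CD4SP minus DP, and in the genotype panel the single red point, at -3.61, is Fut10.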

How the data were processed

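RNA of sorted mouse thymocytes was measured on 9 one-colour (Cy3) arrays; a label protocol naming biotinylated cRNA disagrees with the scanner files, which are followed here. The deposited scanner files give each spot's processed signal, an intensity that Agilent Feature Extraction 10.7.1.1 had background-subtracted and detrended, per the file headers, besides the median spot and background intensity. The deposited series table holds the same intensity divided by each array's 75th percentile, on a linear scale, with column medians between 0.0618 and 0.0766; it served as an alternative. Outlier spots were left out, spots of a probe averaged, and log2 values taken relative to each array's 75th percentile over 55537 probes. RefSeq accessions gave 26715 probes 20258 symbols. A gene took its brightest probe, and counted as well above background where any of its probes did; probes without a symbol that share an accession counted as 1 gene. A first fit had taken each such probe on its own (22945 features); the change followed earlier processing of these data, was made after that fit had been seen, and brought St3gal1 in CD4SP(TCRβ-) minus CD4SP under the threshold. Genes well above background on at least 2 arrays, 20284 in all, entered a limma model (version 3.58.1, R 4.3.3; population plus genotype, 3 residual and 2.91 prior degrees of freedom), with a script tested on simulated data; calls had an adjusted p below 0.05. The error is the spread of the genotype difference between populations, since each group had 1 array; nothing tells whether an array came from 1 mouse or several, and the number of arrays limits the precision. Pair differences were counted past 2-fold with the side not well above background put at the lowest signal well above background on its array. The members and lists were chosen with earlier results of these data known. Named beside the members are pathway genes that passed the test, those with the largest differences per list or pair, and the 3 nearest genes by correlation, of which 1 is not reported here. The array was designed on an older genome build than the RefSeq tables, so no probe position is given. Alternatives were 2 further scalings, normexp with an offset of 50, the deposited table, the mean of a gene's probes, 2 filters, slide as a block or slide 1 alone, leaving out each pair, and a robust prior with trend; added after seeing the data were unnamed probes on their own and pair differences without the bound.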

Additional observations from a re-analysis of the deposited data

Results flagged for a closer look

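Gcnt1 moved in opposite directions in the 2 CD8SP pairs. It was 1.21 higher in CKO than in control CD8SP cells (-1.15 against -2.36), and its difference was -3.90 between CKO and control OT-I CD8SP cells (-4.42, not well above background, against -0.52), which is at least 5.01-fold by this scaling. With normexp the differences were 0.25 for CD8SP and -0.80 for OT-I CD8SP cells, and as the mean of both probes 0.86 and -2.42. The difference between these 2 pair differences was not tested, with 1 array per group. Both were chosen after all members' pair differences had been seen. The second Gcnt1 probe differed by 0.52 and -0.95 in the same pairs. It was well above background on the CD8SP CKO array alone, so in the OT-I pair neither of its arrays was. The CD8SP CKO array was on slide 2 and its control on slide 1, so genotype and slide cannot be told apart there. Both OT-I arrays were on slide 2.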

How the results depend on the processing

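The numbers of members and of all genes called depend on the setting, and the cause was not tested beyond what a setting changes by its construction. As reported, CD4SP minus DP called 3 members and 626 genes, CD4SP(TCRβ-) minus CD4SP 3 and 284, CD8SP minus CD4SP 0 and 79, CD8SP minus DP 0 and 702, OT-I CD8SP minus CD8SP 0 and 48, CD4SP(TCRβ-) minus DP 0 and 0, and genotype 0 and 57. With slide as a block, members called were 1 (St8sia6) in CD4SP minus DP and 0 in CD4SP(TCRβ-) minus CD4SP; gene counts were 285 in CD4SP minus DP, 17 in OT-I CD8SP minus CD8SP, and 0 in CD8SP minus CD4SP, CD8SP minus DP, CD4SP(TCRβ-) minus CD4SP and genotype. On slide 1 alone, members called were 5 in CD4SP minus DP, 1 in CD8SP minus DP and 2 in CD8SP minus CD4SP, and genes 2000 in CD4SP minus DP, 1027 in CD8SP minus CD4SP, 1373 in CD4SP(TCRβ-) minus CD4SP and 132 in genotype. Without the CD8SP pair, members called were 1 in CD4SP minus DP and 0 in CD4SP(TCRβ-) minus CD4SP, and genes 285, 0 and, in genotype, 0. Without the DP pair, members called were 0 in CD4SP(TCRβ-) minus CD4SP, and genes 0 there, in CD8SP minus CD4SP and in genotype, and 27 in OT-I CD8SP minus CD8SP. Without the CD4SP pair, genes called were 20 in OT-I CD8SP minus CD8SP and 0 in genotype. Without the OT-I pair, members called were 2 in CD8SP minus DP and 1 in CD8SP minus CD4SP, and genes 1176 in CD4SP minus DP, 145 in CD8SP minus CD4SP, 582 in CD4SP(TCRβ-) minus CD4SP and 24 in genotype. Scaling to probes detected on all arrays called 0 members and 91 genes in CD4SP(TCRβ-) minus CD4SP, 15 genes in CD8SP minus CD4SP, 29 in OT-I CD8SP minus CD8SP and 32 in genotype; quantile scaling called 0 members and 0 genes in CD4SP(TCRβ-) minus CD4SP and 29 genes in genotype. Normexp called 960 genes in CD4SP minus DP, 1552 in CD8SP minus DP and 577 in CD4SP(TCRβ-) minus CD4SP, with 1 member past 2-fold in the CD8SP pair, as also with the mean of probes, which called 1 member in CD8SP minus CD4SP. The robust prior called 5 members in CD4SP minus DP and 1 in CD8SP minus DP, and 942, 1471 and, in CD4SP(TCRβ-) minus CD4SP and minus DP, 502 and 1 genes. Without the filter, genes called were 121 in CD8SP minus CD4SP (1 member), 439 in CD4SP(TCRβ-) minus CD4SP, 18 in CD4SP(TCRβ-) minus DP and 96 in genotype; with detection on all 9 arrays they were 24 in CD8SP minus CD4SP, 7 in OT-I CD8SP minus CD8SP, 1 in CD4SP(TCRβ-) minus DP and 20 in genotype. Beside the member counts given above, 872 genes were called in CD8SP minus DP without the OT-I pair. With the mean of probes, 106 genes were called in CD8SP minus CD4SP. Without the background bound, an alternative added after seeing the data, 1 member (Fut7) passed 2-fold in the DP pair. With probes lacking a symbol each on their own, as in the first fit and listed as an alternative later, members called in CD4SP(TCRβ-) minus CD4SP were 2, without St3gal1, and genes called were 627 in CD4SP minus DP, 240 in CD4SP(TCRβ-) minus CD4SP, 55 in CD8SP minus CD4SP, 668 in CD8SP minus DP, 51 in OT-I CD8SP minus CD8SP, 0 in CD4SP(TCRβ-) minus DP and 49 in genotype.

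No member difference that passed the test, and none of the pathway differences called in CD4SP minus DP, CD8SP minus DP or genotype, changed sign under the alternatives run. In CD4SP minus DP several alternatives leave the fitted difference as it was, so its sign could not change under them. These include slide as a block, slide 1 alone, leaving out the CD8SP or the OT-I pair and the robust prior. With normexp, St3gal5 was at 1.22 and 1.45 in CD4SP and CD8SP minus DP, B3gnt8 at -1.17 in CD4SP minus DP and St6galnac6 at 0.91 in CD8SP minus DP, all still called. Among member differences that did not pass, the genotype effect turned to 0.0768 for St8sia6 without the CD4SP pair, to -0.0848 for St8sia4 on slide 1 alone, to -0.082 for St3gal6 without the DP pair, and to 0.33 and 0.62 for Gcnt1 on slide 1 alone and without the OT-I pair. Fut7 turned in CD8SP minus CD4SP to 0.0579 with normexp and 0.027 with the mean of probes, and in CD4SP(TCRβ-) minus DP to -0.41 with normexp, -0.0647 with detected-probe scaling, -0.26 with the mean of probes and -0.15 without the CD4SP pair. St8sia6 in CD4SP(TCRβ-) minus DP turned to -0.0003 with detected-probe scaling and -0.11 without the CD4SP pair. Gcnt1 turned to -0.22 in CD8SP minus CD4SP with slide as a block, and St3gal4 to 0.19 in OT-I CD8SP minus CD8SP. In CD4SP(TCRβ-) minus CD4SP, St3gal4 turned to -0.007 with normexp, -0.20 with detected-probe scaling, -0.0516 with slide as a block or without the CD8SP pair and -0.0385 on slide 1 alone. Gcnt1 turned there to -0.0352 with normexp, -0.0258 with detected-probe scaling, -0.61 with the mean of probes, -0.23 on slide 1 alone and -0.38 without the OT-I pair. No paired analysis was possible because each group has 1 array, so replicate numbers pair no samples; the genotype effect is itself fitted over the 4 CKO and control pairs by population.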
